A study of Mus musculus with 4 samples.

Results

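The guanylate-binding proteins of the mouse were examined here as a family of 10 genes, Gbp2, Gbp2b, Gbp3, Gbp4, Gbp5, Gbp6, Gbp7, Gbp8, Gbp9 and Gbp10, taken by symbol from the 49492 gene rows of the count table, and all 10 were found and passed the filter on low counts. RNA of whole testis had been sequenced in 4 libraries, all labelled as testis of male C57BL/6J mice that received LPS (lipopolysaccharide, the outer membrane component of Gram-negative bacteria). By the labels, 2 libraries came from a knockdown of Spry1 by a hairpin (shSpry1), a feedback inhibitor of growth factor receptor signalling, and 2 from a control hairpin (shControl, genotype WT), so LPS was shared by both groups. The age of the mice, the route of the hairpin, the cell types it reached, the LPS dose and time, and whether each library is 1 animal do not appear in the sources used here. The p-values therefore set the difference between the groups against a spread among these samples only, and that spread may be technical. It was estimated largely over all genes tested and in small part from each gene's own 4 libraries. The columns of the table are headed LPS and NC. Here NC is taken to mean the control hairpin and LPS the Spry1 knockdown, which is a reading of the names and no exact match, since LPS stands in all 4 titles. If the headings mean LPS against no LPS, every difference below belongs to that contrast, so the text speaks of LPS columns and of NC columns (or libraries).

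Guanylate-binding proteins are large GTPases of the dynamin superfamily that many cells make after exposure to interferon, above all interferon-gamma. They assemble on the vacuoles of intracellular pathogens and on cytosolic bacteria, help to open them, and promote the activation of inflammasomes by LPS in the cytosol, where caspase-11 (gene Casp4) and gasdermin D act downstream. Some members carry a C-terminal motif for prenylation, a lipid anchor that holds them on membranes. In the mouse the genes lie in a cluster on chromosome 3 and a cluster on chromosome 5.

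Total counts lay between 17612342 and 22451132 per library, with 29393 to 30606 genes detected. Spry1, the targeted gene, counted 26 and 17 in the LPS libraries against 45 and 41 in the NC libraries (log2 fold change -0.82 ± 0.28 SE; quasi-likelihood test of edgeR, Benjamini-Hochberg adjusted p = 0.0212). These counts were known when the columns were read as groups, so they are no independent check of that reading. Whether the Spry1 call holds in the alternative fits given below was not examined. Markers of the labelled tissue were present in every library: all 9 germ cell markers, all 10 Sertoli cell markers and all 8 Leydig cell markers passed the filter on low counts.

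Of the 10 members, 9 rose in the LPS columns and 1, Gbp8, fell. Among all 20855 genes tested, 15.2% were called higher and 16.3% lower by the same rule, an adjusted p under 0.05 in edgeR's quasi-likelihood test. The median log2 fold change was 2.58 over the 10 members and 0.00 over all genes tested, where the sign is positive for higher values in the LPS columns. In the 9 that rose, both LPS libraries lay above both NC libraries, as in 32.1% of all genes, and for Gbp8 both lay below, as in 32.0% of all genes. Gbp2b, Gbp4 and Gbp10 passed the filter on low counts only through the LPS columns, where they are high. Their NC counts were 2 and 1, 10 and 6, and 9 and 9. A gene as low in both groups would not have been tested, and the median over the 10 members includes these genes. Summed over the family, the libraries held 1147 and 1070 counts in the LPS columns against 268 and 243 in the NC columns. In whole tissue, a change in the number of cells that express a gene and a change of its RNA per cell cannot be told apart.

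**Figure D1:**
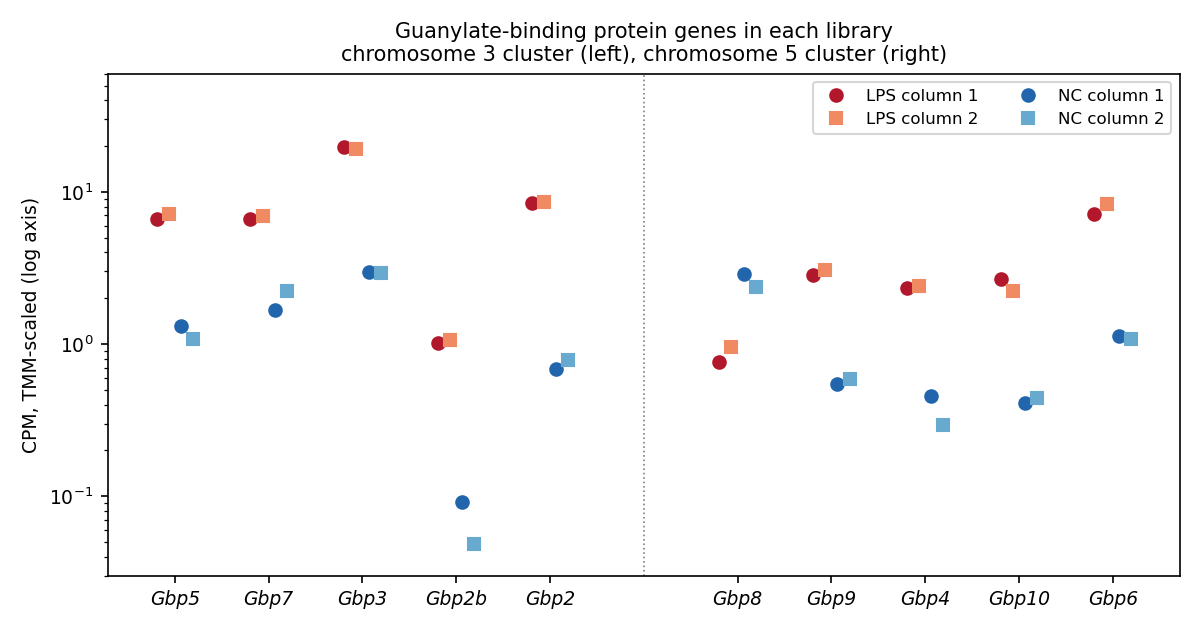
Level of each guanylate-binding protein gene in each of the 4 libraries, in CPM after TMM scaling on a log axis, with the chromosome 3 genes on the left and the chromosome 5 genes on the right. The red LPS points lie above the blue NC points for 9 genes and below them for Gbp8.

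On chromosome 3 the order of the genes in mm10 is Gbp5 (142493978 to 142522344), Gbp7 (142530342 to 142550149), Gbp3 (142560026 to 142573209), Gbp2b (142594847 to 142619179) and Gbp2 (142620602 to 142638008), all on the plus strand and all annotated as protein-coding. Gbp3, the member with the most counts, had 389 and 343 counts in the LPS libraries against 65 and 60 in the NC libraries. Gbp2, a prenylated member that acts on parasite vacuoles and bacteria, had 167 and 154 counts against 15 and 16. The 2 groups lay far apart for both genes, and the replicates of a group lay close together. In CPM, the count relative to the TMM-scaled library size, the mean of Gbp2 was 8.55 ± 0.11 in the LPS and 0.731 ± 0.069 in the NC columns, and that of Gbp3 was 19.5 ± 0.37 and 2.94 ± 0.02 (± SD of 2 libraries). The log2 fold change was 3.54 ± 0.21 (SE) for Gbp2 and 2.73 ± 0.13 for Gbp3 (edgeR with Benjamini-Hochberg adjustment, adjusted p = 6.17e-16 and 5.86e-19).

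Gbp5, a prenylated member linked to NLRP3 inflammasome assembly, had 130 and 127 counts in the LPS libraries against 29 and 22 in the NC libraries. Gbp7, which takes part in the oxidative and autophagic killing of bacteria, had 130 and 124 counts against 37 and 46. The LPS libraries of these genes held nearly equal counts, while their NC counts were higher for Gbp7. Accordingly the log2 fold change was 2.51 ± 0.21 (SE) for Gbp5 and 1.79 ± 0.19 for Gbp7 (edgeR with Benjamini-Hochberg adjustment, adjusted p = 2.59e-12 and 1.16e-09), and that of Gbp7 was the smallest rise in the family. Gbp2b, the gene once named Gbp1, was the rarest member of this cluster, with 20 and 19 counts against 2 and 1. Its ratio of scaled counts was 14.7 with an exact binomial 95% interval of 4.68 to 74.4, which covers counting error only. Its fitted log2 fold change of 3.77 ± 0.59 (edgeR with Benjamini-Hochberg adjustment, adjusted p = 3.88e-06) rests on those 3 NC counts.

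For the genes of the chromosome 3 cluster, the DNA just before their RefSeq starts is shown. The 250 bases before the RefSeq start (GRCm38.p6, plus strand, chromosome 3) are given for the 5 members that the RefSeq promoter table holds: Gbp2 chr3:142620413-142620662, Gbp2b chr3:142594597-142594846, Gbp3 chr3:142559794-142560043 (the first of its 2 starts), Gbp5 chr3:142496684-142496933 and Gbp7 chr3:142530086-142530335. Gbp4, Gbp6, Gbp8, Gbp9 and Gbp10 have no entry. Capitals mark matches to 3 motifs searched on both strands: GAAA and GAAA with any 2 bases between, the core of the interferon-stimulated response element (ISRE) bound by IRF factors, TTCNNNGAA, the gamma-activated site (GAS) of interferon-gamma response genes, and GGG and TTTCC with any 2 bases between, a form of the NF-kB site.
Gbp2: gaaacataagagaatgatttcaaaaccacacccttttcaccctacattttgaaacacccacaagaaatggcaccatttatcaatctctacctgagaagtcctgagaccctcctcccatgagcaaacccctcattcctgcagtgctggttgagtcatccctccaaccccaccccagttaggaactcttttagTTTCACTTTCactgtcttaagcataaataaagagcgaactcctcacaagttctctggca
Gbp2b: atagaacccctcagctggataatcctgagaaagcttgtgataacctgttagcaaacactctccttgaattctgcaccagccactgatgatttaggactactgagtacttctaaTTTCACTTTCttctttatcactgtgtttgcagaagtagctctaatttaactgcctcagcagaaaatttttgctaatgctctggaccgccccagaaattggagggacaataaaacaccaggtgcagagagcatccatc
Gbp3: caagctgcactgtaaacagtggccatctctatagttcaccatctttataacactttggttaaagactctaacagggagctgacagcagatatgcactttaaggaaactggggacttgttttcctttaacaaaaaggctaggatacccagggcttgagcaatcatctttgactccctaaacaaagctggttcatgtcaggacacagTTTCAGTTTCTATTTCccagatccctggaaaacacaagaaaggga
Gbp5: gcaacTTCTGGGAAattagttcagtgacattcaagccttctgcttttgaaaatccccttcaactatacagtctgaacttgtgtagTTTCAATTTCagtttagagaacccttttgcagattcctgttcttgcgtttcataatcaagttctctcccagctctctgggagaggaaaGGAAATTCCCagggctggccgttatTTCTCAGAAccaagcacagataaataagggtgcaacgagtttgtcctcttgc
Gbp7: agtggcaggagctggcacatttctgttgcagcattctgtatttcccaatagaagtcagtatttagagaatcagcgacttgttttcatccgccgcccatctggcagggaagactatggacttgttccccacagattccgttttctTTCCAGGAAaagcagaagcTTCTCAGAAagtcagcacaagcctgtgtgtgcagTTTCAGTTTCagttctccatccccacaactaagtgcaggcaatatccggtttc

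Each of the 5 windows held at least 1 ISRE match, in each case read on the minus strand, whereas 2.98% of all 32851 promoter windows of the same length did. In Gbp2 and Gbp2b the match was the same 10 letters, TTTCACTTTC, from 59 to 50 bases before the start in Gbp2 and from 137 to 128 in Gbp2b. In Gbp3 there were 2 overlapping matches, TTTCAGTTTC and TTTCTATTTC, between 45 and 30 bases before the start, and Gbp7 held the first of these from 53 to 44. Gbp5 held TTTCAATTTC from 165 to 156. GAS matches stood in Gbp5 and Gbp7, 2 in each, and TTCTCAGAA was common to both, while 7.02% of all windows held such a match. The NF-kB form was found in Gbp5 (GGAAATTCCC, 77 to 68 bases before the start), as in 1.41% of all windows. The second start of Gbp3 held none of the 3. These are matches of letters and were not tested as binding sites. The starts of RefSeq and of the counted gene models differ for Gbp2, Gbp3, Gbp5 and Gbp7. The Gbp5 window begins at 142496684 and lies inside the counted gene model, which begins at 142493978. The ISRE match of Gbp2 also lies inside its counted gene model, which begins at 142620602.

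The chromosome 5 genes lie on the minus strand, with Gbp8 (105014150 to 105139540), Gbp9 (105077630 to 105139539) and Gbp4 (105115767 to 105139586) overlapping, followed by Gbp10 (105215699 to 105239533) and Gbp6 (105270702 to 105293698). All 5 are annotated as protein-coding. Gbp6, the most abundant of them by counts in the LPS columns, had 141 and 148 counts there and 25 and 22 in the NC columns, and Gbp10 had 53 and 40 against 9 and 9. Gbp9 had 56 and 55 counts against 12 and 12, and Gbp4 had 46 and 43 against 10 and 6. In these 4 genes the lowest LPS library lay well above the highest NC library. Their log2 fold changes were close to each other: 2.79 ± 0.20 (SE) for Gbp6, 2.64 ± 0.34 for Gbp4, 2.53 ± 0.33 for Gbp10 and 2.38 ± 0.29 for Gbp9 (edgeR with Benjamini-Hochberg adjustment, adjusted p = 1.19e-13, 1.18e-07, 1.2e-07 and 4.1e-08).

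Gbp8 went the other way. It had 15 and 17 counts in the LPS libraries against 64 and 49 in the NC libraries, so that the higher LPS library lay below the lower NC library. Mean CPM was 0.856 ± 0.135 in the LPS and 2.65 ± 0.37 in the NC columns (± SD of 2 libraries), 0.322 of the NC level by the fit. The log2 fold change was -1.63 ± 0.28 (SE), with a 95% interval of -2.20 to -1.07 (edgeR with Benjamini-Hochberg adjustment, adjusted p = 1.77e-05). The call held in all 11 alternative fits, with a highest adjusted p of 0.00424 in DESeq2. Gbp8 shares 61 exon bases with Gbp4 and 60 with Gbp9, and 98.2% of its exon bases belong to no other row. Of the 100-base stretches in its annotated transcripts, 4.39% also occur in a transcript of another gene.

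**Figure D2:**
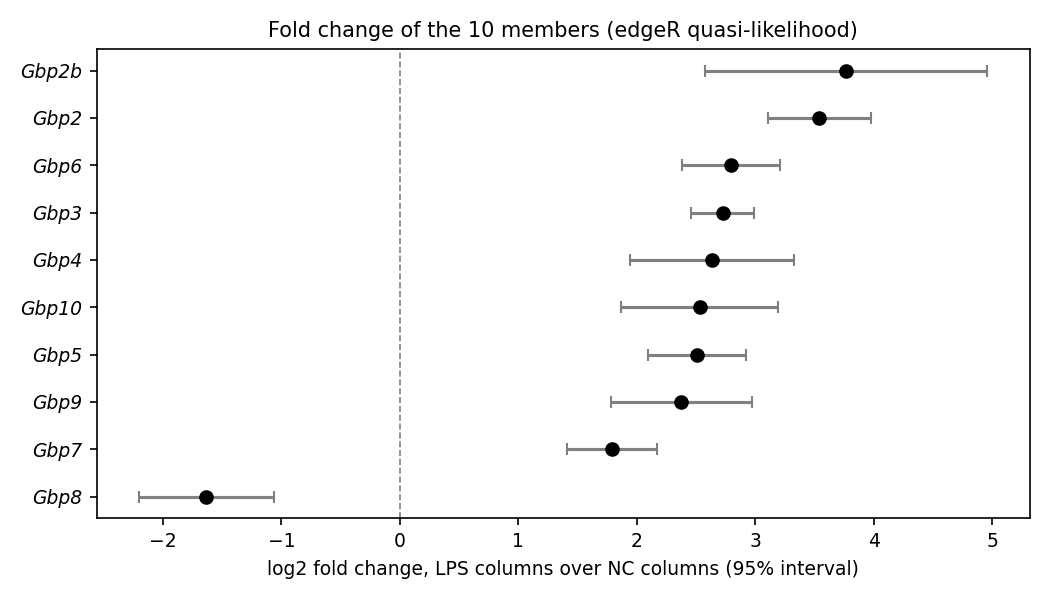
Log2 fold change of each member, LPS columns over NC columns, with its 95% interval from edgeR's quasi-likelihood fit. Gbp8 is the only member below 0, and the widest interval, 2.57 to 4.96, is that of Gbp2b.

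Among the 9 members that rose, the log2 fold change ran from 1.79 to 3.77. The interval of Gbp7 (1.41 to 2.17) did not reach that of Gbp2 (3.10 to 3.98), while the intervals of the chromosome 5 genes other than Gbp8 overlapped each other. The difference in fold change between members was not tested.

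Levels can be set against each other between genes only per length, as RPKM (CPM divided by the deposited exon length in kilobases). In the NC columns the order of the mean RPKM was Gbp3 (0.900), Gbp8 (0.769), Gbp7 (0.349), Gbp2 (0.290), Gbp6 (0.185), Gbp5 (0.180), Gbp10 (0.109), Gbp9 (0.109), Gbp4 (0.050) and Gbp2b (0.025). Gbp7 and Gbp2, Gbp6 and Gbp5, and Gbp10 and Gbp9 were neighbours whose libraries overlapped. In the LPS columns the order was Gbp3 (5.96), Gbp2 (3.40), Gbp6 (1.30), Gbp7 (1.21), Gbp5 (1.03), Gbp10 (0.636), Gbp9 (0.572), Gbp2b (0.368), Gbp4 (0.316) and Gbp8 (0.249). Here Gbp6 and Gbp7, and Gbp10 and Gbp9, overlapped. Gbp3 was thus first in both groups, and Gbp8 stood at rank 2 in the NC columns and rank 10 in the LPS columns.

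The make-up of the family's RNA per length differed accordingly. Gbp8 took 25.9% ± 3.04 of the summed RPKM in the NC columns and 1.65% ± 0.24 in the LPS columns (SD, n = 2 per group). Gbp2 took 9.80% ± 1.14 and 22.6% ± 0.03, and Gbp3 took 30.3% ± 0.44 and 39.7% ± 1.21. The shares of Gbp9 (3.68% ± 0.26 and 3.80% ± 0.17) and Gbp5 (6.06% ± 0.75 and 6.87% ± 0.29) differed little. The summed RPKM of the family was 2.97 ± 0.06 in the NC columns and 15.0 ± 0.17 in the LPS columns, a ratio of 5.07, and without Gbp8 it was 2.20 ± 0.04 and 14.8 ± 0.13, a ratio of 6.73. By cluster, the ratio was 6.86 for the 5 genes on chromosome 3 and 2.51 for the 5 on chromosome 5. The chromosome 5 ratio includes Gbp8, which fell, while Gbp4, Gbp6, Gbp9 and Gbp10 rose by log2 fold changes of 2.38 to 2.79.

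**Figure D3:**
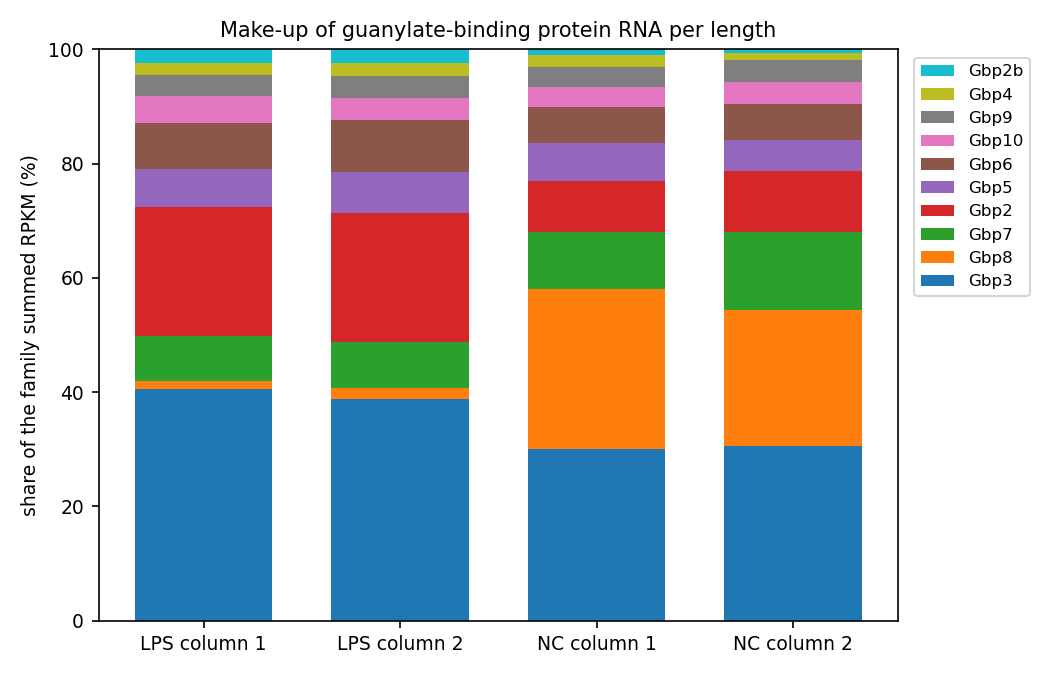
Share of each member in the family's summed RPKM, as stacked bars for each of the 4 libraries. Gbp8 (orange) fills about the same large part of both NC bars and a thin band of both LPS bars, and Gbp2 (red) is the wider in the LPS bars.

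Part of the family cannot be read gene by gene. Gm43302, a protein-coding gene model that runs across Gbp10 and Gbp6, shares 1792 exon bases with Gbp10 and 1726 with Gbp6 and has 792 bases of its own. It had 154 and 148 counts in the LPS libraries against 27 and 23 in the NC libraries (log2 fold change 2.77 ± 0.20 SE). Gm43802, a processed pseudogene inside an exon of Gbp7, has 0 exon bases of its own and still had 20 and 10 counts against 4 and 3, so reads over shared bases were counted in that row. Its call as higher was lost with DESeq2 (p after Benjamini-Hochberg adjustment = 0.0756) or, by edgeR, on leaving out LPS replicate 1 (adjusted p = 0.113). The shared exons make up 46.3% of the bases of Gbp10, 29.0% of Gbp6 and 11.3% of Gbp7. Gbp10 and Gbp6 are also close copies: 60.1% of the 100-base stretches in Gbp10's transcripts occur in those of Gbp6. Counts of Gbp6, Gbp10 and Gm43302 are therefore uncertain and are not independent of each other. By contrast, no 100-base stretch of Gbp2 or Gbp2b, and 0.694% of those of Gbp3, occur in another gene's transcripts.

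Beside the 10 members, the table holds Gbp11, annotated as a polymorphic pseudogene, and the pseudogene Gbp2-ps. Gbp11 had 7 and 3 counts in the LPS libraries against 3 and 1 in the NC libraries, too few to be tested under the filter; without the filter its adjusted p was 0.332 (edgeR, Benjamini-Hochberg). Gbp2-ps had 0 counts in all 4 libraries, which allows up to 0.170 CPM in the shallowest.

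The genes on either side of the clusters were taken as a local comparison, 3 tested genes per side. The 12 flanking genes, from 63.0 to 2784 kb away, had log2 fold changes between -0.41 and 0.42. The shares called over all genes tested were 15.2% higher and 16.3% lower. Among the flanking genes, Pdlim5 was called higher, and Stpg2, Gtf2b and Gm42749 lower. Each of these calls was lost with DESeq2 (p after Benjamini-Hochberg adjustment = 0.31, 0.0908, 0.165 and 0.132), and in edgeR without 1 or more libraries: Pdlim5 whichever of the 4 was left out (adjusted p = 0.0516 to 0.217), Stpg2 without NC replicate 2 (0.122), Gtf2b without LPS replicate 1 (0.0943), LPS replicate 2 (0.0593) or NC replicate 2 (0.221), and with library size as the only scaling (0.0958), and Gm42749 without LPS replicate 1 (0.069). Kyat3, the nearest tested gene past Gbp2, had 54 and 71 counts in the LPS libraries against 57 and 71 in the NC libraries, and the groups overlapped. The values of all 10 members lay outside the range of the flanking genes. Gbp8 reaches farthest toward one edge of its cluster, with the far end of its gene model. Its annotated start on the minus strand (105139540) lies beside those of Gbp9 (105139539) and Gbp4 (105139586), which rose. Whether position plays a part was not tested.

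**Figure D4:**
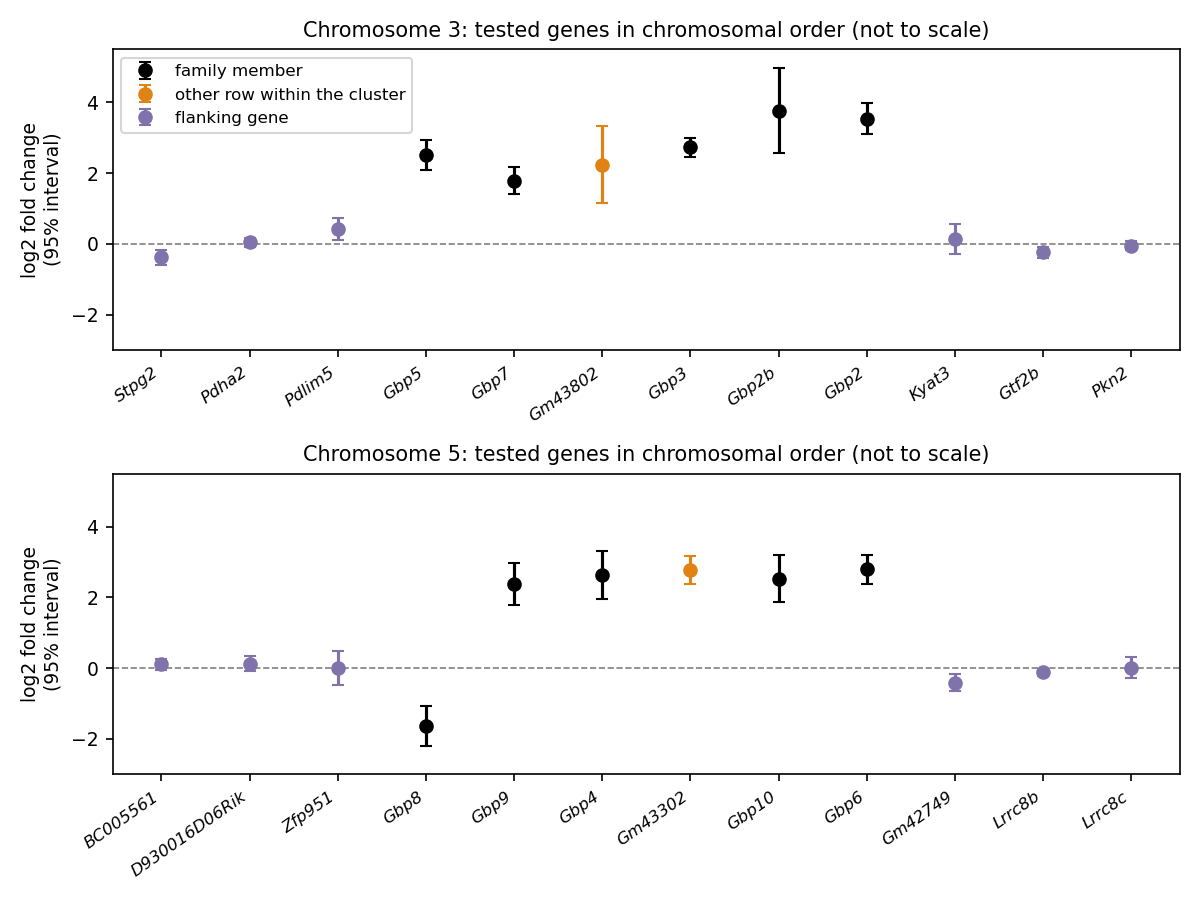
Log2 fold change with its 95% interval for the tested genes of each cluster and 3 genes on either side, in chromosomal order and not to scale. Flanking genes lie between -0.41 and 0.42, members other than Gbp8 between 1.79 and 3.77, and Gbp8 at -1.63.

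Upstream of the family, the list of interferon signalling genes and transcription factors had 15 tested genes. Of these, 7 were higher, 1 was lower and 7 did not pass (median log2 fold change 0.23). Over all genes tested, 15.2% were called higher and 16.3% lower. Among the transcription factors, Stat2 had 276 and 235 counts against 104 and 122 (log2 fold change 1.35 ± 0.13 SE), and Irf1 had 134 and 99 against 55 and 48 (1.35 ± 0.18). Irf2, which can oppose Irf1, fell by 0.41 ± 0.12, a call lost with DESeq2 (p after Benjamini-Hochberg adjustment = 0.108) or, by edgeR, on leaving out LPS replicate 1 (0.116) or NC replicate 1 (0.0504). Ifng, the gene of interferon-gamma, named here after its values were seen, had 0 counts in all 4 libraries, which allows up to 0.134 to 0.170 CPM by library.

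Genes that act with guanylate-binding proteins did not rise as a group. Among 18 tested inflammasome and ATG8 genes there were 3 rises, 2 falls and 13 without a call (median 0.08). Over all genes tested, 15.2% were called higher and 16.3% lower. Pycard, the inflammasome adaptor ASC, had 38 and 33 counts against 8 and 9 (log2 fold change 2.22 ± 0.35 SE). Gsdmd, the pore-forming gasdermin D, went the other way, with 45 and 37 counts against 202 and 165 (-1.98 ± 0.17). Il1b, which overlaps an antisense gene, was at 0.74 ± 0.23, and the ATG8 genes Map1lc3b and Map1lc3a at 0.20 ± 0.07 and -0.22 ± 0.07. These last 3 calls were lost with DESeq2 (p after Benjamini-Hochberg adjustment = 0.184, 0.118 and 0.103). In edgeR, that of Il1b was also lost without LPS replicate 2 (0.121) or NC replicate 2 (0.0782), that of Map1lc3b without LPS replicate 1 (0.0586), LPS replicate 2 (0.0505) or NC replicate 1 (0.181), and that of Map1lc3a without LPS replicate 2 (0.113) or NC replicate 1 (0.402), or with library size as the only scaling (0.0932). Casp4 and Nlrp3, which were named after their values were seen, did not pass the filter on low counts. Casp4 had 6 and 18 counts against 3 and 2, and Nlrp3 had 4 and 7 against 1 and 2. Without the filter Casp4 was called higher (log2 fold change 2.39, edgeR with Benjamini-Hochberg adjustment, adjusted p = 0.00157). Nlrp3 was not called in that fit (1.97, adjusted p = 0.152). Their values were looked up in that fit alone.

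Over all genes tested, 15.2% were called higher and 16.3% lower. Of the 5 enzymes that attach and process prenyl anchors, 1 rose and 4 were not called, with a median log2 fold change of 0.03. The one that rose was Fntb, a farnesyltransferase subunit (0.30 ± 0.09 SE), and its call was lost with DESeq2 (p after Benjamini-Hochberg adjustment = 0.146) or, by edgeR, on leaving out LPS replicate 1 (0.208) or NC replicate 1 (0.0599). Related GTPases rose in 10 of 16 tested members, with 1 lower, 5 not called and a median log2 fold change of 1.66. The immunity-related GTPase Iigp1 had 134 and 119 counts against 10 and 14 (3.56 ± 0.24). Tgtp2 had 69 and 66 counts against 2 and 5 (4.40 ± 0.37), and its close copy Tgtp1 had 26 and 22 against 0 and 0, at least 18.1-fold higher if the NC group is set to 3 counts in all; the counts of this pair are uncertain. Mx1, which belongs to the dynamin-like GTPases, was at -0.90 ± 0.26. That call was lost with DESeq2 (p after Benjamini-Hochberg adjustment = 0.15) or, by edgeR, on leaving out NC replicate 1 (log2 fold change -0.67).

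**Figure D5:**
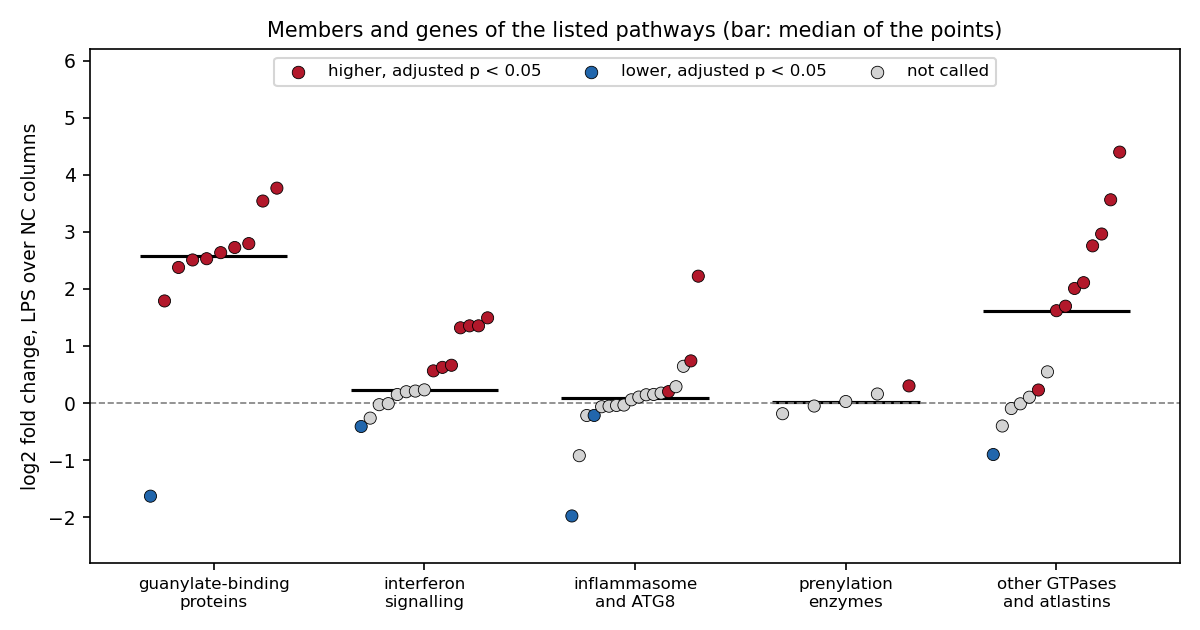
Log2 fold change of the 10 members and of each tested gene in 4 lists of related genes, coloured by call, with a bar at the median of the points; Tgtp1, at 0 counts in the NC columns, is not drawn. Members of the family other than Gbp8 lie at 1.79 or above, and the prenylation enzymes lie near 0.

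Markers of several cell types moved with the same groups, and their part in the values of the family was not tested. Over all genes tested, 15.2% were called higher and 16.3% lower. Of 17 macrophage and monocyte markers, 10 rose and 5 fell (median log2 fold change 0.95), with Itgam at 2.68 and Adgre1 at 1.97 against Cx3cr1 at -0.91. Cd14 counted 33 and 48 against 9 and 7, and Cd163 counted 4 and 2 against 17 and 11. The summed level of these markers was 406 to 421 CPM in the LPS columns and 397 to 425 CPM in the NC columns. Aif1, which was called lower, made up 68.1% to 80.4% of that sum (285 to 287 CPM against 319 to 339 CPM). The other 16 markers summed to 121 to 134 CPM in the LPS and 78.0 to 86.1 CPM in the NC columns, a ratio of 1.55. The Cd163 call was lost with DESeq2 (p after Benjamini-Hochberg adjustment = 0.158) or, by edgeR, on leaving out LPS replicate 2 (0.104) or NC replicate 1 (0.166). Of 10 neutrophil markers 3 could be tested, of which 2 rose and 0 fell, and the list summed to 4.16 to 4.70 CPM against at most 1.80 CPM; S100a9 counted 35 and 32 against 0 and 0, while Ly6g had 0 counts in the LPS libraries against 4 and 6 in the NC libraries. The rise of Mpo was lost with DESeq2 and without LPS replicate 1, LPS replicate 2 or NC replicate 1, which left 1 neutrophil marker higher, and without the filter 1 was lower. Of 12 T and NK cell markers 4 could be tested, 0 rose and 2 fell, with sums of 6.65 to 6.89 CPM against 9.60 to 9.77 CPM and Ncr1 at 0 counts in all libraries. Of those 2 falls, 0 were left with DESeq2 or without LPS replicate 1, and 1 with library size alone, with limma-voom or without any single one of the other 3 libraries.

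Endothelial markers, from cells that also make guanylate-binding proteins, rose in 4 of 11 tested members and fell in 2. Over all genes tested, 15.2% were called higher and 16.3% lower. The endothelial list summed to 36.5 to 41.5 CPM in the LPS columns and 33.8 to 41.2 CPM in the NC columns. Vwf, which was called lower, made up 24.0% to 36.5% of that sum. The 11 other endothelial markers summed to 26.5 to 31.5 CPM in the LPS and 21.7 to 26.2 CPM in the NC columns, a ratio of 1.21. The 4 endothelial rises became 1 with DESeq2 or without LPS replicate 2 and 2 without NC replicate 2, and the 2 falls became 0 with DESeq2 or without NC replicate 1 and 1 without LPS replicate 2. Leydig cell markers fell in 5 of 8 and rose in 1 (451.5 to 522 CPM against 866 to 906 CPM), and the 1 rise was lost with DESeq2 or without LPS replicate 2. Sertoli cell markers rose in 5 of 10 and fell in 1 (997 to 1005 CPM against 768 to 771 CPM), peritubular myoid markers rose in 4 of 5 and fell in 0 (308 to 312 CPM against 204 to 217 CPM), and germ cell markers fell in 6 of 9 and rose in 1 (13719 to 14173 CPM against 19474 to 20194 CPM). Sums without the leading gene of a list were added after the values were seen. Without Clu, the 9 other Sertoli cell markers summed to 231 to 233 CPM against 208 to 212 CPM. The 4 peritubular markers other than Myh11 summed to 77.9 to 79.4 CPM against 53.2 to 56.1 CPM. The 7 Leydig cell markers other than Insl3 summed to 256 to 318 CPM against 666 to 684 CPM. The 8 germ cell markers other than Prm2 summed to 7297 to 7590 CPM against 9296 to 9401 CPM.

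Outside the family, the 5 tested genes whose centred log2 CPM over the 4 libraries lay nearest to the mean profile of the 10 members were 1700065L07Rik, Gm16567, Ube2l6, Lyzl4os and Gm1993, at Euclidean distances of 0.083 to 0.1495. Ube2l6, the conjugating enzyme of the ubiquitin-like protein ISG15, had 145 and 149 counts against 43 and 37. Their log2 fold changes ran from 2.05 to 2.26. The mean profile includes Gbp8, and of the members themselves Gbp9 lay nearest to it (0.153) and Gbp8 farthest (3.64). With 4 libraries in 2 groups, such a likeness is chiefly a like difference between the groups.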

How the data were processed

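Whole-testis RNA of 4 libraries, 2 per group, was sequenced after TRIzol extraction with a stranded mRNA kit, per the labels' protocols. The authors deposited raw counts of reads for each gene, together with exon coordinates and length as in a featureCounts table, per the file headers. Per the submitters' processing notes, STAR 2.5.3a, Trimmomatic 0.36, Subread 1.5.1 with featureCounts, DESeq and edgeR 3.12.1 were used with mm10, their roles not stated. The strand setting, the annotation release and the treatment of reads with several alignments were not given in the sources used here.

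Genes were filtered with filterByExpr (minimum count 10) of edgeR 4.0.16, scaled by TMM and tested across all 20855 genes with the quasi-likelihood test (2 residual, 34.0 prior degrees of freedom) and Benjamini-Hochberg adjustment over all of them. Calls were made at an adjusted p below 0.05. The SE is the one implied by the F statistic. No replicate block was used. Replicates differed by more than sampling noise (chi-square per degree of freedom 2.31 in the LPS columns and 2.20 in the NC columns). The script was tested on simulated data. Lists were described by counts and medians alone. Gene types and transcripts came from GENCODE mouse release M21 (GRCm38), matched by symbol and coordinates, and promoters from RefSeq (GRCm38.p6).

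The named genes were all members, other Gbp rows, up to 3 rises and 2 falls per list, cluster neighbours and the 5 nearest profiles; 1 gene that the rule selects is not reported here. The members and lists were chosen with earlier results of these data known. The binomial interval of Gbp2b and the floors (3 counts) cover counting error only, while the intervals of log2 fold changes come from the quasi-likelihood fit and include the spread between replicates. Alternatives were other scalings (RLE, library size), DESeq2 1.42.0, limma-voom (limma 3.58.1), other filters, each library left out, and a replicate block.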

Additional observations from a re-analysis of the deposited data

How the results depend on the processing

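The 9 rises and the fall of Gbp8 kept their direction and side of the threshold in all 11 alternatives, with 9 members higher and 1 lower in each; log2 fold changes ranged from -1.79 to -1.47 for Gbp8 and from 1.60 (Gbp7, without NC replicate 1) to 4.25 (Gbp2b, without NC replicate 1) for the rest, and the highest adjusted p of a member was 0.00424 (DESeq2, Benjamini-Hochberg). Over all genes, 3169 were called higher and 3394 lower, a split of 48.3% higher that became 62.0% with library size as the only scaling. DESeq2 called 1454 higher and 1845 lower. The family's summed RPKM moved to 15.3 and 2.90 with library size alone. Replicate numbers were not taken as pairs, since no label ties them to an animal or batch and deviations of same-numbered libraries had a correlation of 0.02 across genes; a fit with a replicate block called 3376 genes higher and 3594 lower, 9 members higher and 1 lower, and 2 prenylation enzymes higher in place of 1.

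For the lists, DESeq2 called 0 interferon signalling genes lower, 1 inflammasome and ATG8 gene higher and 1 lower, 0 prenylation enzymes higher, and 6 related GTPases higher and 0 lower. Library size alone gave 5 inflammasome and ATG8 genes higher, 1 lower and 2 prenylation enzymes higher, and no filter gave 5 inflammasome and ATG8 genes higher. With 1 library left out, counts ranged from 2255 to 2730 genes higher, 2425 to 2962 lower over the table, 0 to 1 interferon signalling genes lower, 1 to 4 inflammasome and ATG8 genes higher, 1 to 2 lower, 0 to 1 prenylation enzymes higher and 6 to 10 related GTPases higher with 0 to 1 lower. The cause was not tested. Of the 8 flanking genes without a call, 5 changed sign: with 1 library left out, Pdha2 ranged from -0.00165 to 0.104, Kyat3 from -0.135 to 0.400, Pkn2 from -0.131 to 0.0499, Zfp951 from -0.175 to 0.212 and Lrrc8c from -0.115 to 0.165, with further negative values of Kyat3 (-0.0469), Zfp951 (-0.0801) and Lrrc8c (-0.0680) and a positive one of Pkn2 (0.0148 with library size alone; 0.0499 is without NC replicate 1). BC005561, D930016D06Rik and Lrrc8b kept their sign, and on leaving out LPS replicate 2 edgeR called Lrrc8b lower (adjusted p = 0.0456, Benjamini-Hochberg). Low NC counts limit the precision for Gbp2b, Gbp4 and Gbp10.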
